A study of Bos taurus with 9 samples.

Results

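Acyl-CoA synthetases join fatty acids to coenzyme A, the step that lets a fatty acid be oxidised, stored as triacylglycerol or built into membranes. The genes described here are ACSM1 and ACSM2B, whose products act on medium-chain fatty acids in the mitochondrial matrix, and ACSL1, ACSL3 and ACSL5, whose products act on long-chain fatty acids at the membranes of the endoplasmic reticulum, mitochondria and lipid droplets. They were chosen by name, as every probe set annotated with exactly 1 of 6 listed symbols. In all, 8 of 24016 probe sets met the rule and stood for 5 of 9155 named genes: 3 probe sets for ACSL3, 2 for ACSM2B and 1 each for ACSM1, ACSL1 and ACSL5. The sixth, ACSL4, whose product favours arachidonic acid, had no probe set named with it and was not analysed here.

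In mammals the ACSL enzymes differ in where they sit in the cell. ACSL1 is the main long-chain form of adipocytes and of oxidative muscle, ACSL3 is found on the endoplasmic reticulum and on growing lipid droplets, and ACSL5 is found on mitochondria and the endoplasmic reticulum. The ACSM enzymes are best known from liver and kidney mitochondria, where they activate butyrate, other short and medium-chain acids and benzoate. An acyl-CoA made there can be oxidised or, through GLYAT, joined to glycine.

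Abdominal adipose tissue, subcutaneous adipose tissue and longissimus dorsi muscle, the skeletal muscle along the back, were taken at slaughter from male Yan yellow cattle aged 24 months, with 3 arrays per tissue on a 1-colour Affymetrix bovine array. The labels give a single breed and shared rearing conditions. The labels count 9 bulls and do not tie samples to animals, so p-values reflect how far these samples vary, which may be technical. Precision is limited by the small number of arrays. Each value below is the log2 of a deposited intensity, a level without a unit, and a value under 6 is taken as near background, since the median of an array lay between 5.75 and 5.92. Levels are compared between tissues for the same probe set and not between probe sets.

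The tissue labels were checked against marker genes. All 8 measured adipocyte markers, leptin and PPARG among them, were higher in abdominal fat than in muscle, and 7 were higher in subcutaneous fat. There LPL did not pass (0.45, limma adjusted p = 0.16). The summed intensity of the 8 was 36899 to 38971 on abdominal arrays and 31718 to 33340 on subcutaneous arrays, against 5718 to 10466 in muscle. Of 7 muscle fibre markers 5 were lower in both depots. On the probe set used for each, CKM was higher in both depots and MYH7 in abdominal fat (0.75, limma adjusted p = 0.027). In subcutaneous fat MYH7 did not pass (0.44, limma adjusted p = 0.155). The 7 summed to 3282 to 6587 on abdominal arrays and 3515 to 4398 on subcutaneous arrays, against 48965 to 52257 in muscle. Of 24016 probe sets, 6295 were higher and 6333 lower when the average of the depots was set against muscle, so that 49.8% of calls were higher, and 39.2% were with each array centred on its median. That centring lowers every difference between fat and muscle by about 0.12. The ratio of the 3′ to the 5′ control probe set of glyceraldehyde-3-phosphate dehydrogenase, a sign of RNA integrity, was 1.257 to 1.622 on abdominal arrays and 1.208 to 1.735 on subcutaneous arrays, against 0.937 to 1.012 in muscle. The same ratio for actin lay much further apart, at 2.235 to 5.687 on abdominal arrays and 3.856 to 8.167 on subcutaneous arrays, against 0.963 to 1.036 in muscle. For the elongation factor EF1a it was 0.473 to 0.622 and 0.529 to 0.65 in the depots, against 0.278 to 0.354 in muscle. The part of RNA quality in the differences between fat and muscle, or between the depots, was not tested. In whole tissue, more cells of a type and more RNA per cell cannot be told apart.

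**Figure D1:**
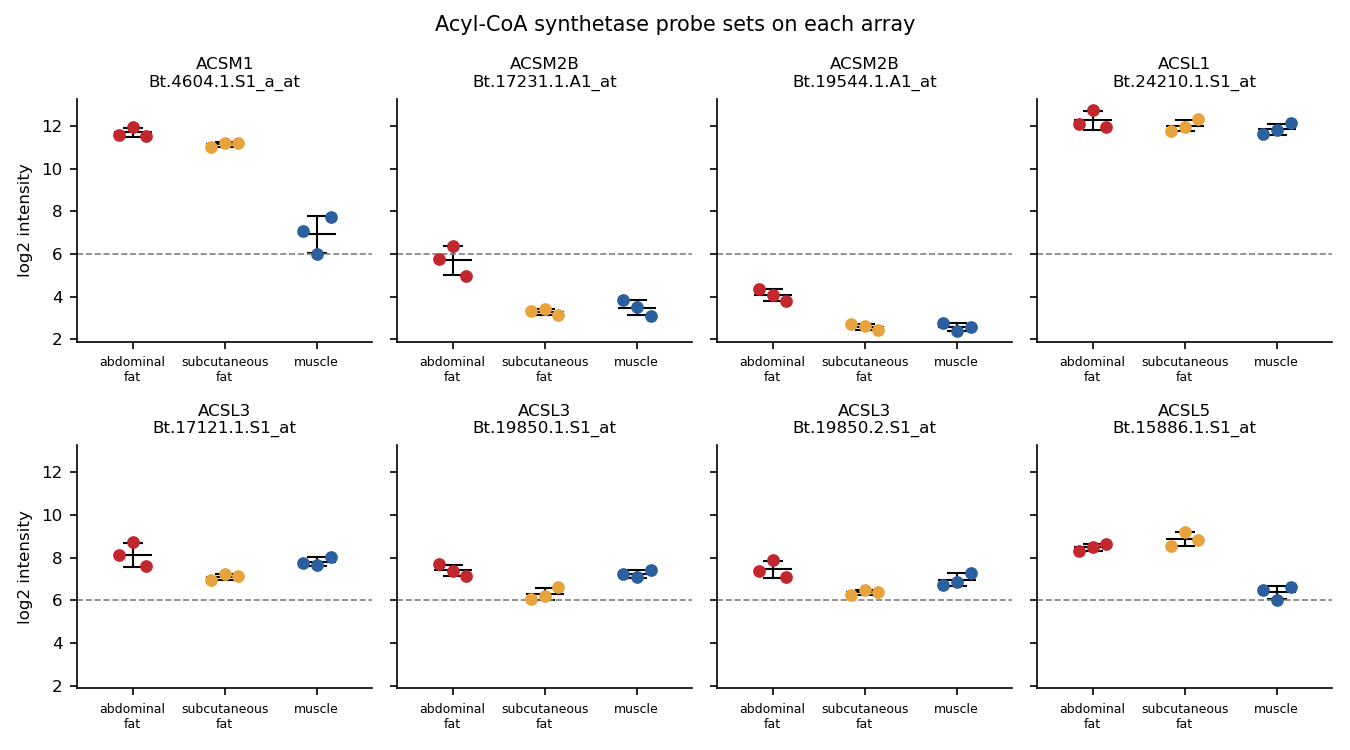
Log2 intensity (vertical axes) of the 8 acyl-CoA synthetase probe sets on each array, by tissue. Points are arrays, the wide bar is the mean and the whiskers are the SD (3 arrays per tissue), and the dashed line marks a log2 value of 6. ACSM1 and ACSL5 are high in both fat depots, ACSM2B is raised in abdominal fat alone but near background, ACSL3 is lowest in subcutaneous fat and ACSL1 is bright in every tissue.

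The first comparison asked which synthetases differed between adipose tissue and muscle. ACSM1 and ACSL5 were far higher in both depots, ACSM2B was higher in abdominal fat, ACSL3 was lower in subcutaneous fat, and ACSL1 did not pass the test in either depot. Of the 8 probe sets, 4 were higher in abdominal fat than in muscle, where 23.5% of all probe sets were higher (limma, adjusted p under 0.05). None was lower after adjustment, where 23.1% of all probe sets were lower. None was lower at an unadjusted p under 0.05, a threshold at which the share of all probe sets was not counted. In subcutaneous fat against muscle 2 were higher and 3 lower, where 24.6% of all probe sets were higher and 22.4% lower. With both depots as a mean against muscle, 4 were higher, where 26.2% of all probe sets were higher. The other 4 did not pass, and 26.4% of all probe sets were lower. The median difference of the 8 probe sets was 0.99 for abdominal fat and -0.10 for subcutaneous fat, and that of all probe sets was -0.07 and -0.05.

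ACSM1, the enzyme once named butyryl-CoA synthetase, had log2 values of 11.59, 11.96 and 11.55 on abdominal arrays and 11, 11.22 and 11.19 on subcutaneous arrays, against 7.06, 6.01 and 7.73 in muscle. Every fat array lay above every muscle array, and the muscle arrays were spread more widely (SD 0.86) than those of abdominal (0.22) or subcutaneous fat (0.12). The difference was 4.77 ± 0.35 for abdominal fat minus muscle (SE, 3 arrays per tissue; adjusted p = 4.81e-06), or 27.3-fold. For subcutaneous fat minus muscle it was 4.20 ± 0.35 (adjusted p = 9.95e-06), or 18.4-fold. The muscle array with the lowest ACSM1, replicate 2, also had the lowest summed intensity of adipocyte markers, 5718 against 10466 and 10235 on muscle replicates 1 and 3. The highest ACSM1 was on replicate 3 and the highest sum on replicate 1, and the part of fat cells within the muscle samples was not tested.

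ACSL5 had log2 values of 8.32, 8.49 and 8.66 on abdominal arrays and 8.56, 9.22 and 8.85 on subcutaneous arrays, against 6.47, 6.03 and 6.64 in muscle. The fat and muscle arrays did not overlap, while the depots overlapped with each other. The difference was 2.11 ± 0.21 for abdominal fat minus muscle (adjusted p = 2.76e-05) and 2.50 ± 0.21 for subcutaneous fat minus muscle (adjusted p = 9.74e-06), or 4.32-fold and 5.65-fold. Marker lists of several cell types moved in the same direction. All 7 measured macrophage markers were higher in both depots. Of 8 adipocyte markers 8 were higher in abdominal and 7 in subcutaneous fat, and of 8 endothelial markers 7 and 6. Of all probe sets, 23.5% were higher in abdominal and 24.6% in subcutaneous fat. The macrophage markers summed to 5386, 10703 and 8626 on abdominal arrays and to 5453, 11032 and 10981 on subcutaneous arrays. In muscle they summed to 2471, 1007 and 1417. The part of these cell types in the ACSL5 difference was not tested.

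ACSL1 was bright throughout, at 12.08, 12.75 and 11.94 on abdominal arrays, 11.77, 11.97 and 12.31 on subcutaneous arrays and 11.62, 11.79 and 12.12 in muscle. The 3 tissues overlapped. The difference was 0.42 for abdominal fat minus muscle (95% interval -0.11 to 0.94; adjusted p = 0.171) and 0.18 for subcutaneous fat minus muscle (-0.34 to 0.70; adjusted p = 0.557). For the depots it was 0.24 (-0.28 to 0.76; adjusted p = 0.737). These intervals leave room for a difference of up to 0.94 between abdominal fat and muscle, so the 3 tissues were not shown to be alike. With the leading number of the sample titles as a replicate block, abdominal fat minus muscle was 0.72 and passed (limma adjusted p = 0.0149). Subcutaneous fat minus muscle (0.18, 0.365) and the depots (0.54, 0.261) did not pass with that block.

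**Figure D2:**
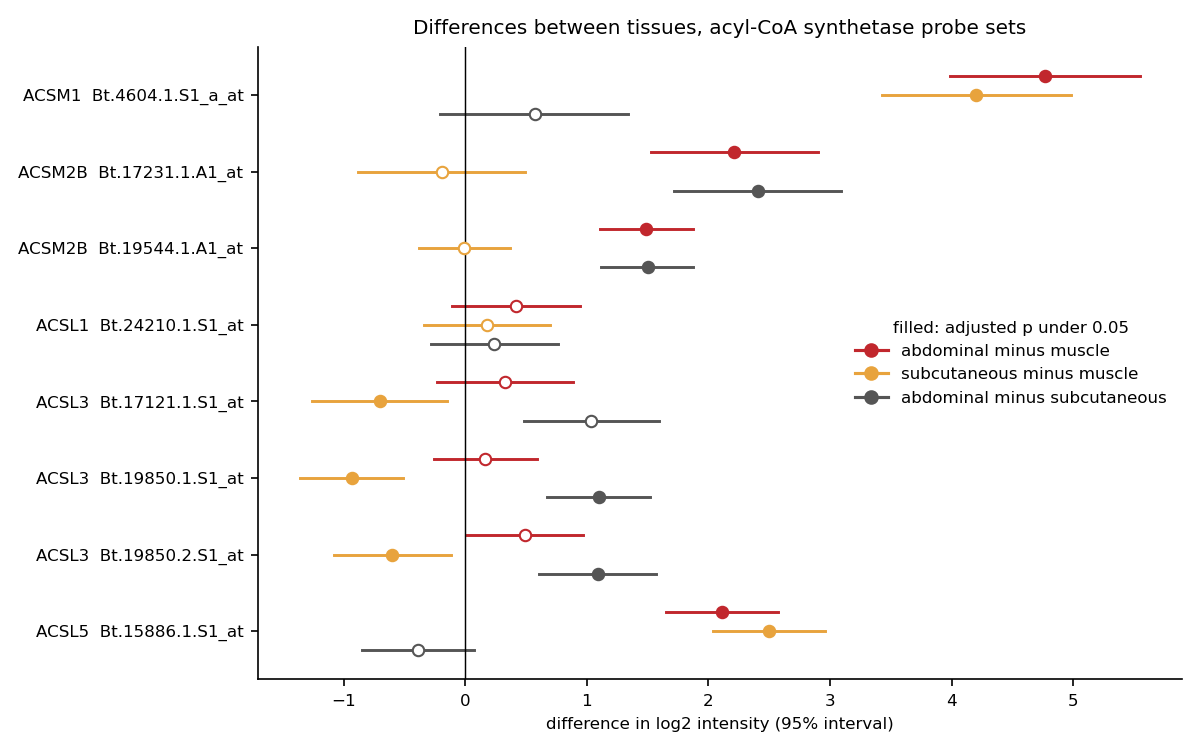
Differences in log2 intensity between tissues (horizontal axis) for the 8 probe sets, with 95% intervals from the limma fit. Filled points passed an adjusted p of 0.05. ACSM1 has the largest differences between fat and muscle, at 4.77 and 4.20, and the ACSM2B and ACSL3 probe sets have the largest differences between the depots, from 1.03 to 2.41.

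The second comparison asked which synthetases differed between abdominal and subcutaneous fat. ACSM2B and ACSL3 were higher in abdominal fat, and ACSM1, ACSL1 and ACSL5 did not pass. Of the 8 probe sets 4 were higher in abdominal fat, where 0.641% of all probe sets were higher. None was lower after adjustment, where 0.666% of all probe sets were lower. At an unadjusted p under 0.05 none was lower either, but the share of all probe sets at that threshold was not counted. The median difference was 1.06, against -0.02 over all probe sets. The genes were chosen by name but with earlier results of these arrays known, so the count describes these probe sets.

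The brighter of the ACSM2B probe sets had log2 values of 5.75, 6.36 and 4.99 on abdominal arrays and 3.33, 3.41 and 3.14 on subcutaneous arrays, and 3.82, 3.52 and 3.11 in muscle. Abdominal arrays lay above all others, and subcutaneous fat and muscle overlapped at the low end of the scale. The dimmer probe set had 4.36, 4.07 and 3.81 on abdominal arrays, 2.70, 2.62 and 2.42 on subcutaneous arrays, and 2.77, 2.40 and 2.59 in muscle. Both probe sets thus placed the tissues alike, although only abdominal replicate 2 on the brighter probe set exceeded 6. Abdominal minus subcutaneous fat was 2.41 ± 0.31 (adjusted p = 0.0105) on the brighter and 1.50 ± 0.17 (adjusted p = 0.00754) on the dimmer. Abdominal fat minus muscle was 2.21 ± 0.31 (adjusted p = 0.000254) and 1.49 ± 0.17 (adjusted p = 6.86e-05). Subcutaneous fat minus muscle was -0.19 (95% interval -0.88 to 0.49) and -0.01 (-0.38 to 0.37). Because the lower tissues are near background, the sizes are not exact. On the log2 scale with 16 added to each intensity the depot differences were 1.42 and 0.59, and both still passed.

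Since kidney and the mesothelial lining lie close to abdominal fat, their markers are given beside ACSM2B. All 6 measured kidney markers, uromodulin (UMOD) and the transporter SLC22A6 among them, were under 6 on every array, and their summed intensity was 121 to 123 on abdominal arrays and 119 to 127 on subcutaneous arrays, against 154 to 177 in muscle. The 4 measured mesothelial markers summed to 566, 136 and 354 on abdominal replicates 1, 2 and 3, to 149, 206 and 175 on subcutaneous arrays and to 141, 138 and 130 in muscle. The abdominal array with the highest ACSM2B on the brighter probe set, replicate 2, had the lowest mesothelial sum of the abdominal arrays, within the range of muscle. On the dimmer probe set the highest abdominal array was replicate 1, which had the highest mesothelial sum. Mesothelin (MSLN) read 6.32, 4.39 and 6.41 on the abdominal arrays. None of the 4 passed between the depots. MSLN (1.64) and UPK3B (1.06) were higher in abdominal fat at an unadjusted p under 0.05 in limma, and 0 were lower. The share of all genes at that threshold was not counted. The median depot difference of the 4 was 0.78, against -0.04 over all genes. In abdominal fat against muscle 3 of the 4 were higher, where 23.5% of all probe sets were higher. The part of mesothelial cells in the ACSM2B difference was not tested. Of 9 liver markers none passed between the depots, with limma or at an unadjusted p under 0.05, and their sums were 2443 to 2602 on abdominal arrays and 2321 to 2558 on subcutaneous arrays.

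**Figure D3:**
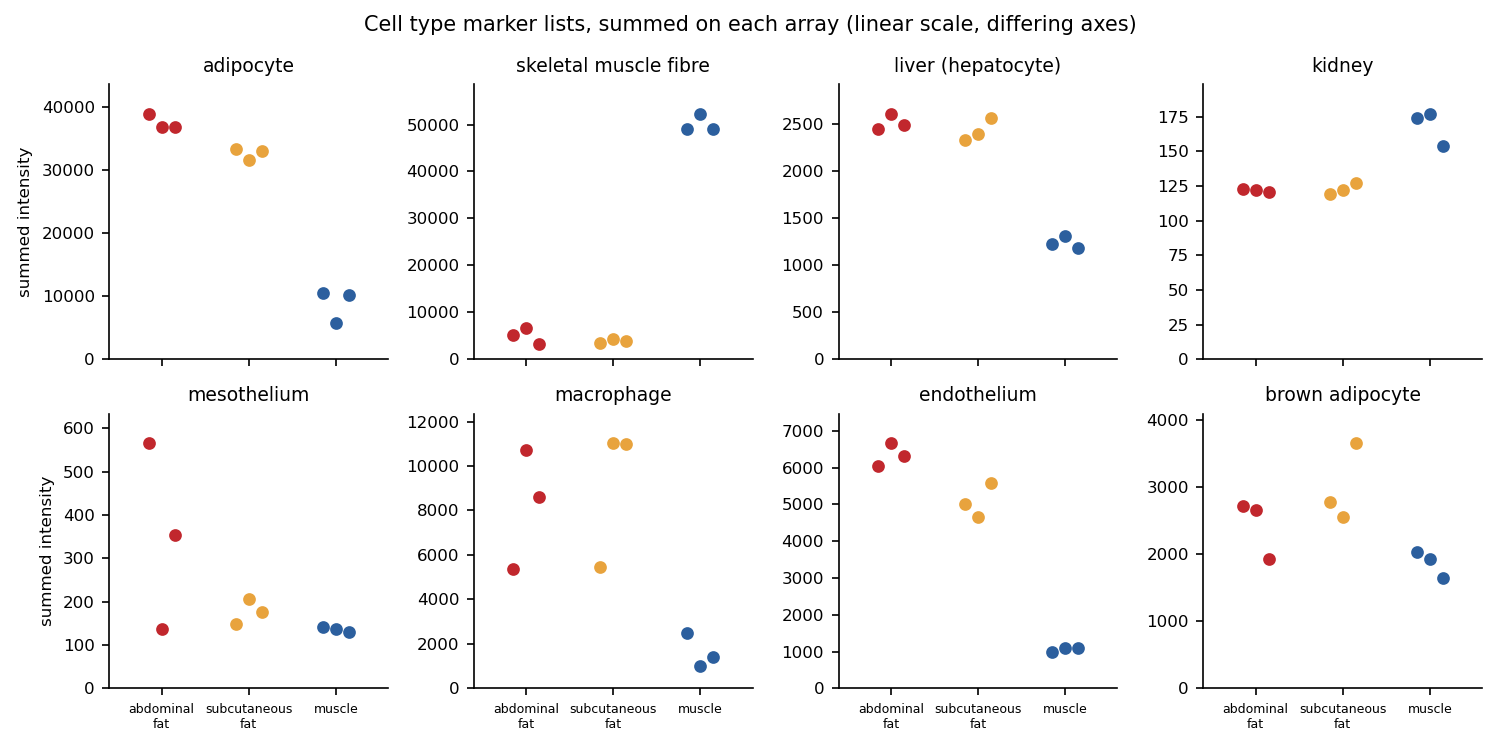
Summed intensity (vertical axes, linear scale, from 0) of 8 lists of cell type markers on each array, by tissue. Each point is an array. Kidney markers are as low in abdominal fat (121 to 123) as in subcutaneous fat (119 to 127), mesothelial markers vary from 136 to 566 among abdominal arrays, and macrophage markers reach 11032 on subcutaneous arrays.

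ACSL3 was read by 3 probe sets that ordered the tissues in the same way, abdominal fat first, muscle next and subcutaneous fat last. By their mean over the arrays they are called the brightest, the middle and the dimmest. The brightest had log2 values of 8.11, 8.72 and 7.60 on abdominal arrays, 6.95, 7.23 and 7.15 on subcutaneous arrays, and 7.75, 7.65 and 8.04 in muscle. The middle probe set had 7.69, 7.40 and 7.14 on abdominal arrays, 6.08, 6.23 and 6.64 on subcutaneous arrays, and 7.24, 7.08 and 7.43 in muscle. On each of the 3 probe sets the subcutaneous arrays lay below all the others, and abdominal fat and muscle overlapped. The dimmest had 7.39, 7.90 and 7.11 on abdominal arrays, 6.25, 6.50 and 6.38 on subcutaneous arrays, and 6.74, 6.87 and 7.31 in muscle.

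Abdominal minus subcutaneous fat gave ACSL3 differences of 1.03 ± 0.25 (adjusted p = 0.0805), 1.10 ± 0.19 (0.0336) and 1.09 ± 0.22 (0.0463) on the brightest, the middle and the dimmest probe set, or 2.05-fold, 2.14-fold and 2.13-fold. Subcutaneous fat minus muscle gave -0.70 ± 0.25 (adjusted p = 0.0411), -0.93 ± 0.19 (0.0027) and -0.60 ± 0.22 (0.0439). Abdominal fat minus muscle gave 0.33, 0.16 and 0.49, with adjusted p of 0.306, 0.513 and 0.0885. With the mean of the 3 probe sets as the value of the gene, a setting chosen after seeing the data, the depots differed by 1.07 ± 0.19 (adjusted p = 0.0311) and subcutaneous fat differed from muscle by -0.74 ± 0.19 (0.00823). These calls rest on few arrays. The depot call of the middle probe set held only without muscle replicate 2 or 3 or subcutaneous replicate 3, and that of the dimmest only without muscle replicate 3, with adjusted p of up to 0.101 and 0.141 when another array was left out. The lower level in subcutaneous fat than in muscle held without any array for the middle probe set (adjusted p of at most 0.0133), but for the brightest only without abdominal replicate 2 or 3, and for the dimmest only without muscle replicate 1 or abdominal replicate 2 or 3.

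The remaining genes did not pass between the depots. ACSM1 was 0.57 higher in abdominal fat (95% interval -0.21 to 1.34; adjusted p = 0.522), although its 3 abdominal arrays lay above the 3 subcutaneous ones. ACSL5 differed by -0.39 (-0.85 to 0.07; adjusted p = 0.448).

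The profile of each gene was compared with 9023 other named genes by the root mean square difference between log2 values centred on each gene's mean over the 9 arrays. The nearest to ACSM1 were the lipogenic regulator THRSP (0.26), the adipocyte transcription factor PPARG (0.29) and the lipid droplet protein CIDEC (0.36). THRSP had 13.18, 13.01 and 13.14 on abdominal arrays and 12.65, 12.40 and 12.99 on subcutaneous arrays, against 8.81, 7.50 and 9.59 on muscle arrays. In muscle its replicate 2 was lowest and its replicate 3 highest, as for ACSM1. Such likeness follows from choosing the nearest genes on these same arrays and is no separate result. The nearest to ACSM2B were the fatty acid elongase ELOVL7 (0.29), the adhesion molecule CEACAM1 (0.40) and the membrane protein TM4SF18 (0.52).

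ELOVL7 had 7.49, 7.83 and 7.38 on abdominal arrays, 5.19, 5.71 and 5.32 on subcutaneous arrays, and 5.49, 5.35 and 5.17 in muscle. CEACAM1 had 8.23, 9.56 and 8.32 on abdominal arrays and 6.68, 7.14 and 6.64 in subcutaneous fat. Abdominal replicate 2 was highest, as for the brighter ACSM2B probe set to which CEACAM1 was matched. For ACSL5 the nearest were STAT6 (0.15), a transcription factor of interleukin signalling, PLEKHO2 (0.17) and TLCD3A (0.17). The nearest to ACSL3 were LONRF3 (0.22), SUSD2 (0.22) and SREK1 (0.23), and to ACSL1 METTL3 (0.16), PDSS2 (0.17) and PLA1A (0.19). The profile of ACSL1 was nearly flat, with 1.13 between its highest and lowest array, so small differences from it carry little information.

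**Figure D4:**
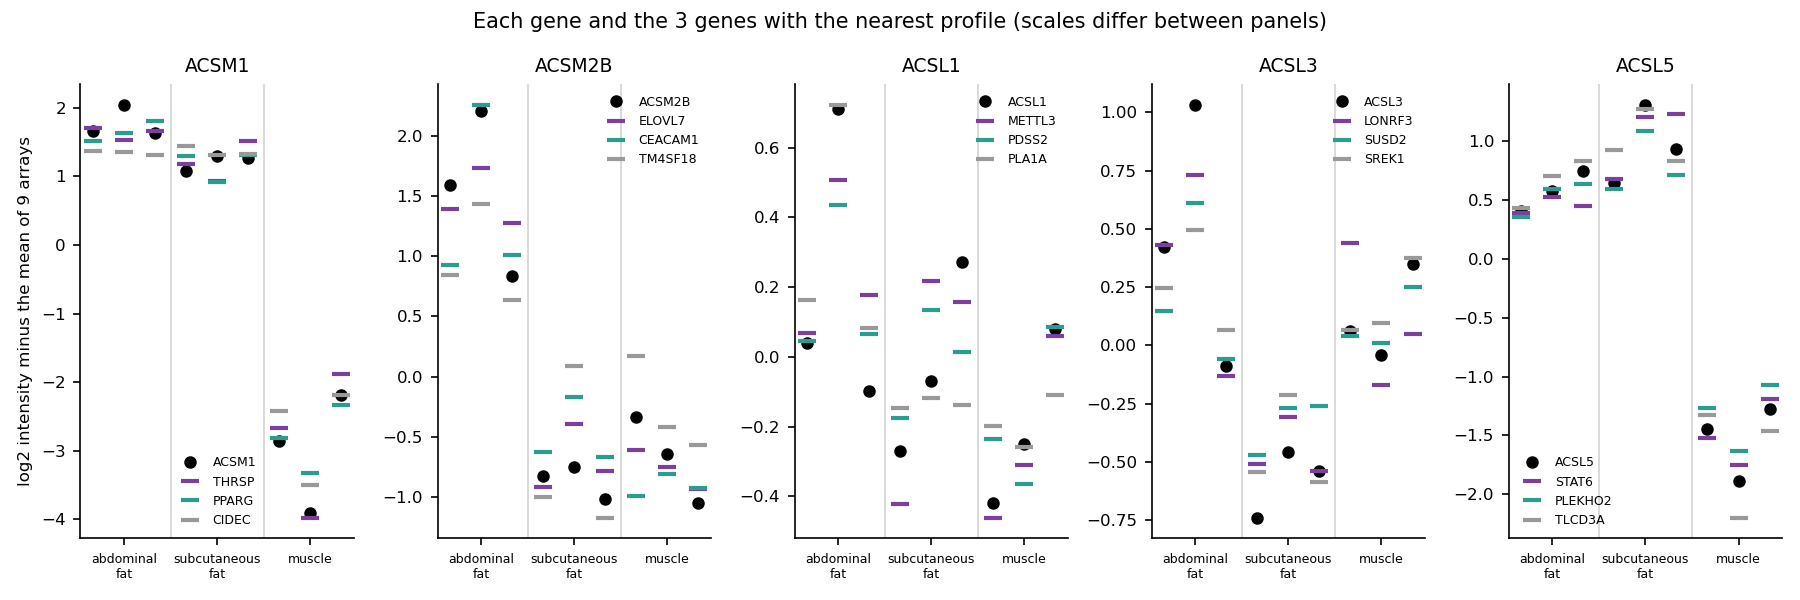
Log2 intensity minus the mean of the 9 arrays (vertical axes, scales differ) for each gene (black points) and the 3 genes nearest to it (coloured bars), with the arrays of each tissue in replicate order. ACSM1 and its nearest genes separate fat from muscle, ACSM2B, ELOVL7 and CEACAM1 stand apart in abdominal fat, and the ACSL1 panel spans only 1.13.

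ACSM2B and ACSM1 are next to each other among the protein-coding genes of the ARS-UCD2.0 assembly, in a row that also holds ACSM5, ACSM4 and ACSM3, which were not analysed here. ACSM1 passed against muscle in both depots and did not pass between them (0.57). ACSM2B, near background, passed against muscle in abdominal fat only and passed between the depots. Their depot differences were not tested against each other. None of the 4 measured neighbours, chosen after seeing the data, passed between the depots or passed as higher in fat than in muscle. UMOD averaged 4.06 on abdominal arrays, 4.07 on subcutaneous arrays and 4.07 in muscle. GP2, a zymogen granule glycoprotein, averaged 3.47, 3.58 and 3.97 in the same order and was lower in fat (adjusted p = 0.0323). ERI2, an exonuclease, averaged 4.08 and 3.86 in abdominal and subcutaneous fat (adjusted p = 0.863), against 3.29 in muscle. Its difference of 0.69 for adipose tissue minus muscle did not pass (limma adjusted p = 0.0886). The 2 probe sets of the receptor GPRC5B differed between the depots by -0.27 (adjusted p = 0.478) and -0.45 (0.552).

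The other synthetases of the array did not move as a block. Of 14 further genes 6 were measured, of which 4 passed between fat and muscle (3 higher, 1 lower), where 61.4% of all 9155 genes passed in either direction, with a median difference of 0.90 against -0.02 over all genes. ACSS2, the cytosolic enzyme that activates acetate for fat synthesis in ruminants, had 11.59, 10.84 and 11.81 on abdominal arrays and 12.08, 11.13 and 12.02 on subcutaneous arrays, against 8.79, 8.46 and 9.67 in muscle (2.61 ± 0.32, adjusted p = 9.17e-05). Its mitochondrial counterpart ACSS1 went the other way (-1.81 ± 0.33, adjusted p = 0.00115), with means of 7.93 on abdominal arrays, 6.79 on subcutaneous arrays and 9.17 in muscle. ACSL6, a long-chain form best known from brain and red blood cells, was 1.75 ± 0.21 higher but under 6 on every array. AACS, which activates acetoacetate, was 1.46 ± 0.24 higher. ACSF2, a mitochondrial medium-chain synthetase, was higher in abdominal than in subcutaneous fat (1.19 ± 0.23, adjusted p = 0.0451), where 1.50% of genes passed in either direction, and this call was lost without 7 of the 9 arrays, and held only without muscle replicate 3 or subcutaneous replicate 3. Its values were 9.01, 9.12 and 9.49 on abdominal arrays and 7.52, 8.06 and 8.47 on subcutaneous arrays.

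The SLC27 family, transport proteins that also activate very long-chain fatty acids, was dim in all tissues, with 4 of 5 measured members under 6 on every array. SLC27A6 (-1.42), SLC27A1 (-1.12 ± 0.14) and SLC27A4 (-0.55) were lower in adipose tissue than in muscle. Of these, SLC27A1 alone exceeded 6 in a tissue mean, at 6.27 in muscle, against 5.17 in abdominal and 5.12 on subcutaneous arrays. The SLC27A6 call held only without abdominal replicate 2, subcutaneous replicate 2 or muscle replicate 3, and was -0.69 without muscle replicate 2. The SLC27A4 call was lost without muscle replicate 2 or 3.

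Genes whose products use acyl-CoA were grouped by route. For storage, 7 of 13 measured esterification genes were higher in adipose tissue and 2 lower, with a median difference of 0.47. Since 61.4% of all genes passed in either direction, the number of calls in this and the following lists is read as no result about a route. They included DGAT2, which makes triacylglycerol (3.56 ± 0.14, adjusted p = 5.72e-08), the acyltransferase AGPAT2 (2.72 ± 0.17) and the glycerol-3-phosphate acyltransferase GPAM (2.49 ± 0.24), while AGPAT5 was lower (-2.44 ± 0.10). GPAT3, which starts glycerolipid synthesis in the endoplasmic reticulum, had 9.72, 10.65 and 9.21 on abdominal arrays and 4.91, 7.72 and 6.58 on subcutaneous arrays, against 7.99, 7.87 and 8.71 in muscle. Like ACSL3, GPAT3 was lowest in subcutaneous fat, and the depots differed by 3.45 ± 0.62 (adjusted p = 0.0349). This call held only without subcutaneous replicate 2 or muscle replicate 2 or 3, and its adjusted p reached 0.112 without abdominal replicate 2.

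For oxidation, the carnitine route had 1 of 5 genes higher and 2 lower, beside 61.4% of all genes in either direction, with a median of -0.49. CPT1B, the muscle form of the enzyme that passes long-chain acyl groups into mitochondria, was lower by a fitted -3.46, a size that is inexact because both fat means were under 6, with means of 5.88 on abdominal and 5.47 on subcutaneous arrays against 9.13 in muscle (adjusted p = 1.99e-07), and CRAT (-1.86) was also lower, whereas the peroxisomal CROT was higher (1.82). Beta-oxidation genes had 3 higher and 3 lower of 10, beside the same 61.4%, with a median of 0.06. ECI2 (-1.68), the medium-chain dehydrogenase ACADM (-1.66) and the very long-chain ACADVL (-1.51) were lower, and ACADL was higher (0.86), a call that held only without abdominal replicate 3, subcutaneous replicate 1 or muscle replicate 2 and whose value was 0.54 without muscle replicate 1. GLYAT, which joins acyl-CoA to glycine, had 9.22, 9.02 and 9.94 on abdominal arrays and 9.46, 8.79 and 8.68 on subcutaneous arrays, against 6.11, 5.90 and 6.38 in muscle (3.05 ± 0.24, adjusted p = 4.5e-06). Every fat array of GLYAT lay above every muscle array. The same held for ACSM1, but also for ACSL5, DGAT2, AGPAT2, GPAM and ACSS2, so it is not particular to ACSM1 and GLYAT.

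Thioesterases, which release the fatty acid again, had 2 higher and 4 lower of 7 measured, beside 61.4% of all genes in either direction, with a median of -0.64. ACOT13 (-1.64) and ACOT2 (-1.10) were lower, and THEM4 (1.46) and ACOT9 (1.20) higher. Of 4 acyl-CoA binding proteins, ACBD5 (0.80) and ACBD3 (0.57) were higher and ACBD6 (-0.87) lower. Between the depots, ACSF2 and GPAT3 were the limma calls among these 51 genes. The share of all genes under an unadjusted p of 0.05 was not counted. In the lists with no call, an unadjusted p under 0.05 was reached by 3 beta-oxidation genes and 1 carnitine route gene that were higher in abdominal fat and 1 thioesterase that was lower. The smallest p of each such list belonged to ACADM (0.50, adjusted p = 0.17), CPT1B (0.42, 0.345), THEM4 (-0.94, 0.202), ACBD6 (-0.22, 0.521), GLYAT (0.42, 0.558) and SLC27A2 (-0.05, 0.924).

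**Figure D5:**
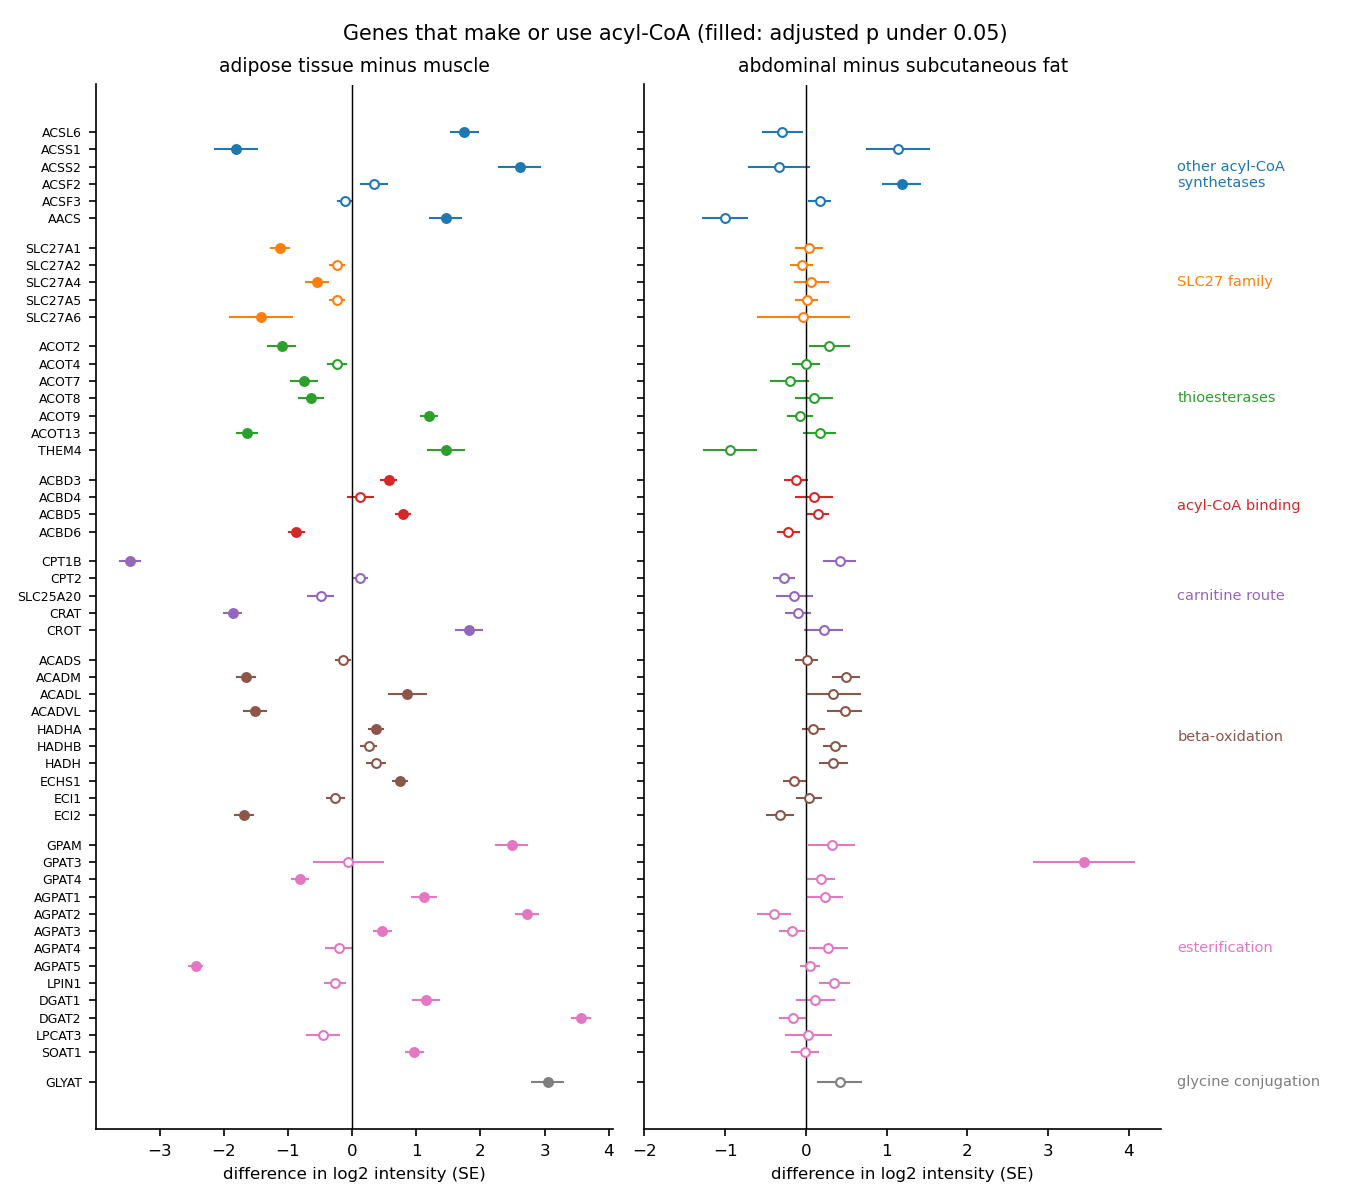
Differences in log2 intensity (horizontal axes, bars are the SE) for 51 genes that make or use acyl-CoA, in 8 lists, for adipose tissue minus muscle (left) and abdominal minus subcutaneous fat (right). Filled points passed an adjusted p of 0.05. DGAT2 at 3.56 and CPT1B at -3.46, an inexact size since CPT1B was under 6 in fat, are the extremes of the left panel, and GPAT3 at 3.45 stands apart in the right panel.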

How the data were processed

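Each array was deposited as linear intensities, 1 for every probe set, from 3.058 to 17450.5. RMA is named in the submitters' processing notes, without settings. The planned test assumed log2 values, so the log2 of each intensity was taken, with no further normalization and no filter. No pair of arrays held identical values. Of 24128 probe sets, 112 controls were left out. Names came from the array annotation, updated through gene identifiers: 13292 probe sets had 1 symbol (9155 genes), 86 several and 10638 none. Where a gene outside the described family had several, the highest mean over 9 arrays stood for it.

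With 1 mean per tissue, all probe sets were fitted together in limma 3.58.1 in R 4.3.3 (lmFit, eBayes; 6 residual and 3.752 prior degrees of freedom), two-sided, with Benjamini-Hochberg adjustment over 24016 probe sets and a threshold of 0.05. The procedure was tested on simulated data. Tables and figures used Python 3.11.15, pandas 2.3.3 and matplotlib 3.10.9.

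The genes, lists and tests were chosen with earlier results of these data known. From each list the text names up to 4 passing genes with the largest difference between adipose tissue and muscle and up to 2 between the depots, or the smallest p where none passed, and other genes were named after their values were seen. For each described gene the 3 nearest profiles are named, provisional symbols left out. Alternatives changed the scaling, prior variance, filter, array weights, title number as a block, arrays fitted, probe sets tested, threshold, pseudocount and each array in turn.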

Additional observations from a re-analysis of the deposited data

Results flagged for a closer look

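Abdominal and subcutaneous fat differed from each other in their difference from muscle, by the limma test of that difference itself, on 4 probe sets of ACSM2B and ACSL3. For ACSM2B the difference between the depots was 2.41 on the brighter probe set (adjusted p = 0.0105) and 1.50 on the dimmer (adjusted p = 0.00754), higher on 3 of 3 abdominal arrays than on any subcutaneous array, with levels near background. For ACSL3 it was 1.10 on the middle probe set by brightness (adjusted p = 0.0336) and 1.09 on the dimmest (adjusted p = 0.0463), also higher on 3 of 3 abdominal arrays than on any subcutaneous array. The brightest ACSL3 probe set had 1.03 (adjusted p = 0.0805). Groups of 3 arrays were too small for a test of single outlying samples, but each array was left out in turn. The ACSL3 calls were then lost in 6 of 9 fits for the middle probe set and in 8 of 9 for the dimmest. Their limma adjusted p reached 0.101 and 0.141. The ACSM2B calls were lost in 0 of 9.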

How the results depend on the processing

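For the 5 genes, 32 differences were recomputed under the alternatives, giving 600 values: 547 kept their side of the threshold, 39 lost a call, 14 gained one and none reversed. ACSM1 and ACSL5 against muscle and ACSM2B in abdominal fat against muscle kept their calls throughout, and ACSM2B between the depots lost a call only on its brighter probe set at an adjusted p under 0.01. The lost calls were otherwise those of ACSL3.

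The leading number of the sample titles was also used as a replicate block. Of 7 pairs of samples with the same number, 5 had correlated deviations from their tissue means over 0.1. The correlation ranged from 0.043 to 0.362 over these 7 pairs, and from -0.324 to 0.17 over pairs with different numbers. It was highest, at 0.33 and 0.362, for the abdominal and subcutaneous samples that share a number. The labels do not tie samples to animals, so the main fit used no block, and whether the numbers mark animals is not known. With the replicate block, 7 of the 8 synthetase probe sets passed between abdominal fat and muscle, in place of 4. ACSL1 (0.72, limma adjusted p = 0.0149) and 2 ACSL3 probe sets joined them. Of all probe sets, 9502 passed there with the block, in place of 11196. ACSL1 also passed in adipose tissue minus muscle (0.45, adjusted p = 0.0296). Between the depots 118 of all probe sets passed with the block, in place of 314.

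The filter on dim probe sets left ACSM2B untested. Then 2 synthetase probe sets passed in adipose tissue against muscle, 2 in abdominal fat against muscle and 2 between the depots. Of all probe sets kept by the filter, 8977, 8356 and 303 passed in these comparisons. In subcutaneous fat against muscle 3 passed, in place of 5, with array weights, at 0.01 and with 16 added to the intensities. Of all probe sets, 12155, 7918 and 10891 passed there under these settings, in place of 11299. Between the depots 2 passed with the arrays of the depots alone and 1 at 0.01. Of all probe sets, 358 passed between the depots with the arrays of the depots alone, 1034 with array weights and 36 at 0.01. Of the 13292 probe sets with 1 symbol, 7713 passed in adipose tissue, 6974 in abdominal fat and 7013 in subcutaneous fat against muscle. Between the depots 198 passed. Of the 24016 in the main fit, 12628, 11196, 11299 and 314 passed in the same order. The totals tested differ, so the smaller counts are not a loss of calls in themselves. What changed the counts under the other settings was not tested. With each array left out in turn, all probe sets passing between the depots ranged from 57 to 491, synthetase probe sets passing there from 2 to 4, and those in subcutaneous fat against muscle from 3 to 5.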

Other observations

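The highest array of each tissue was counted over the 8 probe sets, which stand for 5 genes, with 3 for ACSL3 and 2 for ACSM2B. Abdominal replicate 2 was the highest abdominal array on 5 of the 8 probe sets and subcutaneous replicate 2 the highest subcutaneous array on 5. Muscle replicate 3 was the highest muscle array on 6. The shares over all probe sets were not counted, so these counts are read as no result about single arrays. On ACSL1 abdominal replicate 2 read 12.75, against 12.08 and 11.94 on the other abdominal arrays. On ACSM1 in muscle, replicate 3 read 7.73 and replicate 2 read 6.01. THRSP, chosen as the nearest to ACSM1 on these arrays, read 9.59 on muscle replicate 3 and 7.50 on replicate 2.

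Of 8 endothelial markers 1 passed between the depots, where 1.50% of all genes passed in either direction, and 7 did not. These 7 were CLDN5 (-0.13), PECAM1 (0.10), VWF (0.11), TIE1 (0.50), ROBO4 (0.53), CDH5 (0.59) and KDR (0.79). At an unadjusted p under 0.05 in limma, 5 of the 8 were higher in abdominal fat and 0 lower. The share of all genes at that threshold was not counted. The median difference of the 8 was 0.51, against -0.04 over all genes. TEK, an endothelial receptor, was 1.09 ± 0.18 higher in abdominal fat (adjusted p = 0.0293). The 8 markers summed to 6030 to 6664 on abdominal arrays and 4654 to 5589 on subcutaneous arrays. Their part in the ACSM2B and ACSL3 differences was not tested.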
